A study of Mus musculus with 15 samples.

Results

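The genes described here carry fatty acids into heart muscle and oxidise them. The list holds 36 genes chosen for that role, and 34 of them are in the expression table of the series, which lists 16658 genes. Cpt1b and Acaa1a were not analysed here. All 34 passed the filter on low values that left 13541 genes for testing, and the lowest of their values still rested on 37 reads (Acsm5).

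Polyadenylated RNA of the heart was sequenced from male C57BL/6 mice of 8 to 10 weeks, in 11 libraries of 5 groups. Rivaroxaban hearts (n = 2) came from mice given 3 mg/kg of this factor Xa inhibitor for 7 days, and dabigatran hearts (n = 2) from mice given 10 mg/kg of this thrombin (factor IIa) inhibitor for 7 days. Hearts of the aPC group (n = 2) came from mice that received activated protein C, an anticoagulant protease, at 1 mg/kg given 30 min ahead of the operation. The artery that feeds the front of the left ventricle was then tied for 90 min and reopened for 24 h, with drugs resumed 2 h after surgery. Untreated hearts (n = 2) and sham hearts (n = 3) are named as their labels name them, and the labels do not describe the operation of either group separately. The tissue included the infarct and the muscle around it. Every mouse was of the same strain with no engineered allele named. Single libraries are named by their titles, in which Riva and Dabi stand for both drugs and Cont for the untreated hearts. No label gives a batch or a pairing, and no label says more of the replicates than that they are separate samples, so p-values measure the spread between these libraries.

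The working heart takes most of its energy from long-chain fatty acids. Lipoprotein lipase frees them from circulating triglyceride, CD36 and transport proteins bring them in, acyl-CoA synthetases activate them, and the carnitine shuttle moves them into mitochondria. There each turn of the beta-oxidation spiral removes a short carbon unit and passes electrons through the electron transfer flavoprotein to the respiratory chain. The nuclear receptor PPAR-alpha switches many of these genes on, and malonyl-CoA, made by acetyl-CoA carboxylase, blocks entry at the carnitine step.

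Fatty acid genes were lowest in the dabigatran hearts on the deposited scaling, although after scaling to cardiomyocyte markers 20 of the 34 differences from untreated and 16 from sham hearts lay above 0. The group mean of 33 of the 34 members was lowest there, which was so for 23.6% of all genes tested. In the remaining gene, Pdk4, the lowest mean was in aPC hearts. The highest mean was in aPC hearts for 19 members, in rivaroxaban hearts for 11, in untreated hearts for 4 and in sham hearts for 0, beside 22.1%, 18.9%, 21.1% and 8.7% of all genes. Normalized counts per unit of library size (CPM) summed over the 34 genes came to 29923 and 31672 in rivaroxaban hearts, 19869 and 17046 in dabigatran hearts, 32344 and 30733 in aPC hearts, 25977 and 35403 in untreated hearts, and 26991, 24149 and 25930 in sham hearts. Both dabigatran libraries lay below all 9 others. The members took 1.88% to 2.00% of the summed CPM in dabigatran hearts and 2.45% to 3.43% in the other libraries.

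**Figure D1:**
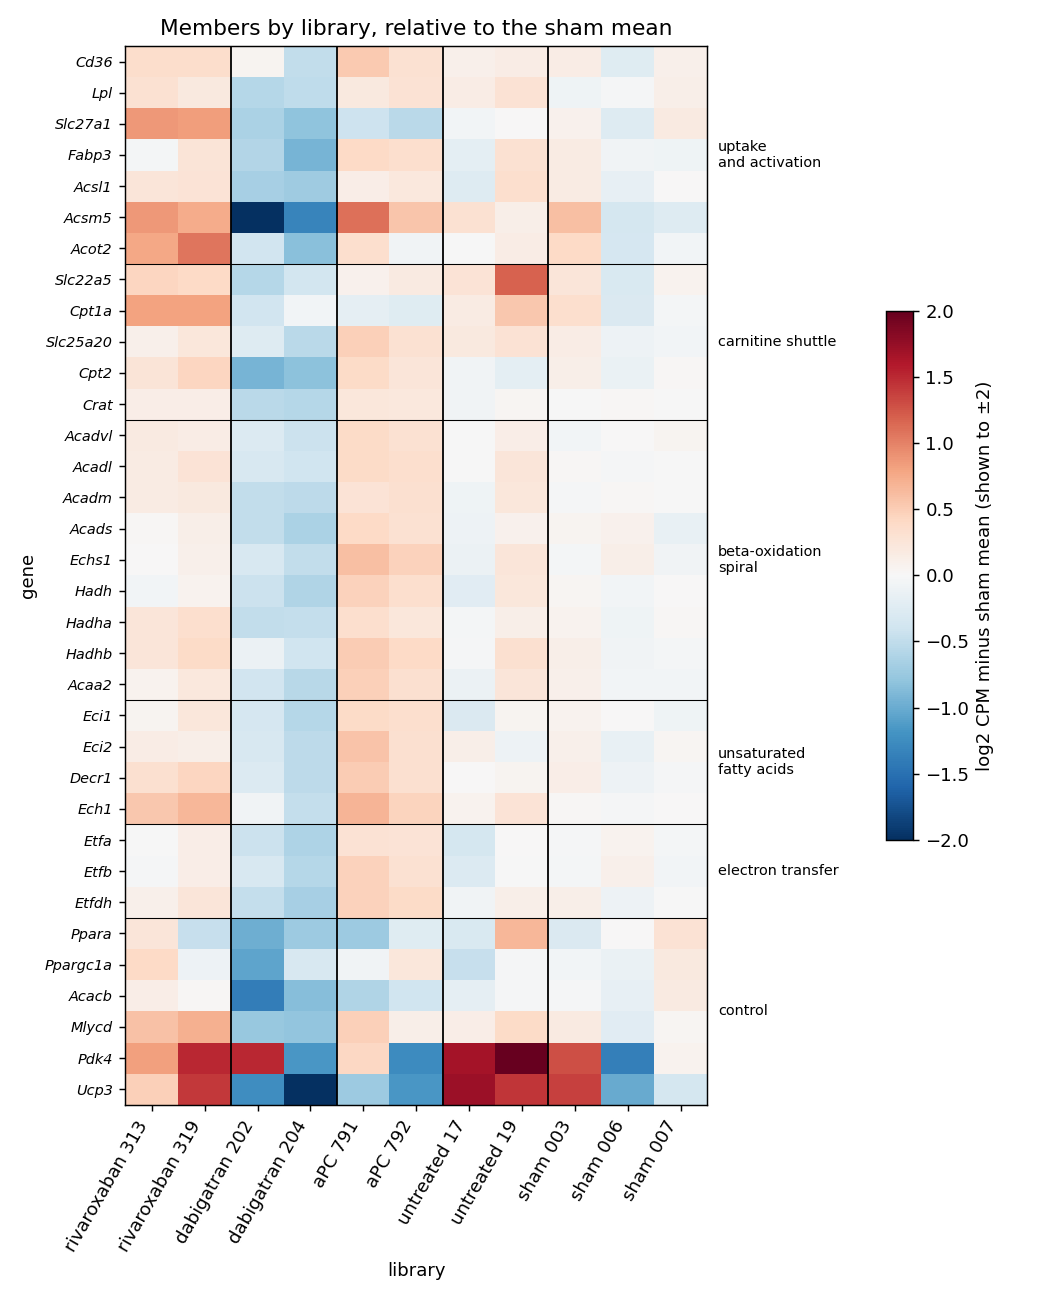
Level of each of the 34 genes (rows, ordered by role) in each of the 11 libraries (columns), as the difference in log2 CPM from the mean of the 3 sham libraries. Dabi-204 was below the sham mean in 34 of 34 genes and Dabi-202 in 32, whereas Riva-313 and Riva-319 were above it in 30 and 32; these differences are on the deposited scaling, and scaling to cardiomyocyte markers leaves 18 of 34 genes below sham in the dabigatran group.

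Libraries were sequenced to 26203566 (Dabi-202) to 36135006 (Dabi-204) reads on listed genes. The untreated pair stood apart from each other, with an SD of the log2 difference of 0.79 over all genes, against 0.31 to 0.48 in the other pairs of 1 group. Cont_19 exceeded Cont_17 in 30 of the 34 members. Markers of heart muscle cells were lowest in the dabigatran hearts, as the members were. In rivaroxaban hearts 5 of 6 markers lay below sham and 6 of 6 below untreated hearts (median differences -0.14 and -0.24). By limma 0 of the 6 were called in either comparison, and 0 had an unadjusted p under 0.05. The members' medians lay above 0 in both. Between rivaroxaban and dabigatran hearts, 6 of 6 markers lay higher in rivaroxaban hearts, as the members did, with a median difference of 0.31. In 5 of the 6 the libraries did not overlap (beside 33.7% of all genes higher), and 0 were called by limma (beside 23.3% of all genes). Summed CPM of 6 cardiomyocyte markers (Myh6, Tnnt2, Tnni3, Myl2, Ryr2 and Mb, of 8 listed) were 57207 to 60540 in rivaroxaban, 43713 to 46609 in dabigatran, 66930 to 72830 in aPC, 66604 to 86622 in untreated and 58657 to 76105 in sham hearts. Neutrophil markers (8 of 8) summed to 18.8 to 42.4 CPM in rivaroxaban and 593 to 1042 in dabigatran hearts, 43.1 to 109 in aPC, 108 to 165 in untreated and 32.4 to 50.8 in sham hearts. Monocyte and macrophage markers (8 of 8) summed to 325 to 364 CPM in rivaroxaban and 747 to 824 in dabigatran hearts, 562 to 609 in aPC, 223 to 272 in untreated and 414 to 584 in sham hearts. Endothelial markers (8 of 8) summed to 1600 to 1853 CPM in rivaroxaban and 1440 to 1496 in dabigatran hearts, 1575 to 1632 in aPC, 1635 to 2027 in untreated and 1591 to 1786 in sham hearts. Both dabigatran libraries were the lowest there, and 2 of the 8 were called lower than in untreated hearts (1 without any 1 library but Cont_17). The 2 adipocyte markers in the table, of 8 listed, were near 0 in every library, at 0.256 to 0.682 CPM. In bulk tissue, fewer cells of a type and less RNA per cell cannot be told apart. The part of these cell markers in the results below was not tested beyond the scaling to cardiomyocyte markers given beside them.

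Rivaroxaban and dabigatran hearts differed in nearly the whole set. Of the 34 genes, 31 were called higher in rivaroxaban than in dabigatran hearts and 0 lower, which is 91.2% of the members, beside 9.39% of all genes called higher and 23.3% called in either direction. A gene is called where limma's p, adjusted by Benjamini-Hochberg across every gene tested, is under 0.05. Values of both groups did not overlap in 33 of 34 genes, with rivaroxaban the higher group, against 33.7% of all genes. The median difference was 0.75 on the log2 scale, a 1.69-fold higher level in rivaroxaban hearts, where the median of all genes was 0.00. The 3 genes not called were Cd36, Ppara and Pdk4. With each library scaled to its cardiomyocyte markers, a setting chosen after seeing the data, every gene moved by -0.34. The lowest unscaled difference of a member was 0.46, so all 34 differences had to stay above 0. Their median was then 0.42, and 10 of the 31 calls were left. Of 13541 genes, 3644 were called under that scaling, 8.51% of them higher. The count without 1 library was 15 without Riva-319, 16 without Riva-313, 19 without Dabi-204 and at least 22 without any other. In every such fit 13 genes stayed called, namely Slc27a1, Acsl1, Acsm5, Acot2, Cpt2, Crat, Acadm, Hadha, Decr1, Ech1, Etfdh, Acacb and Mlycd.

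Dabigatran hearts also lay below untreated and below sham hearts on the deposited scaling, where scaling to cardiomyocyte markers gave median differences of 0.07 and -0.01. Against untreated hearts 19 of 34 genes were called lower and 0 higher (55.9%, beside 5.08% of all genes called lower and 13.8% called at all). Values did not overlap in 33 genes, with dabigatran the lower group, against 21.5% of all genes. The median difference was -0.56, a 1.48-fold lower level in dabigatran hearts. Against sham hearts 20 were called lower and 0 higher (58.8%, beside 6.82% of all genes called lower and 18.5% called at all), and in 31 genes the libraries did not overlap, against 25.9% of all genes. There the median was -0.51, a 1.43-fold lower level. The comparison with untreated hearts shares its dabigatran libraries with that against sham, so neither is independent of the other or of the comparison of the drugs.

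Few of these calls were left under the scaling. Scaled to the cardiomyocyte markers, the median difference of the members was 0.07 from untreated and -0.01 from sham hearts, with 2 calls lower in each, and 20 of 34 differences from untreated and 16 of 34 from sham lay above 0. That scaling takes 1 offset per library from every gene, and it moved the median of all genes by 0.63 and 0.51, to 0.68 and 0.51. The members moved by the same amounts, so their distance from the median of all genes could not change and tests nothing. A value or list above 0 after scaling, here and below, includes that shift. Of 13541 genes, 6792 were then called against untreated and 5286 against sham hearts, 97.9% and 99% of them higher. Among the markers themselves, 2 of 6 were called lower in dabigatran than in untreated hearts, Myh6 by 0.98 ± 0.27 and Ryr2 by 0.89 ± 0.19 (log2 fold change -0.98 and -0.89, adjusted p = 0.0402 and 0.013, limma), a count of 0 without Dabi-202 and 1 without Cont_19, Dabi-204, Sham_006, Sham_007 or any aPC or rivaroxaban library. Calls against untreated hearts also rested on the spread shared between groups: 1 gene passed when only both groups entered the fit, and 0 when libraries were weighted by their spread, at which both untreated libraries had a weight of 0.242. Calls against sham hearts numbered 18 and 20 in those fits, for which the share of all genes called is not given here. The count against untreated hearts was 7 without Dabi-204, 8 without Dabi-202 or Cont_19, and 28 without Cont_17. Against sham it was 9 with Dabi-204 left out, 4 with Dabi-202 left out, 7, 11 and 10 without Sham_003, Sham_006 and Sham_007, and 13 without Riva-313 or Riva-319. Cpt2, Crat and Acacb stayed called in both comparisons in every such fit, with Mlycd against untreated and Slc27a1 against sham.

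**Figure D2:**
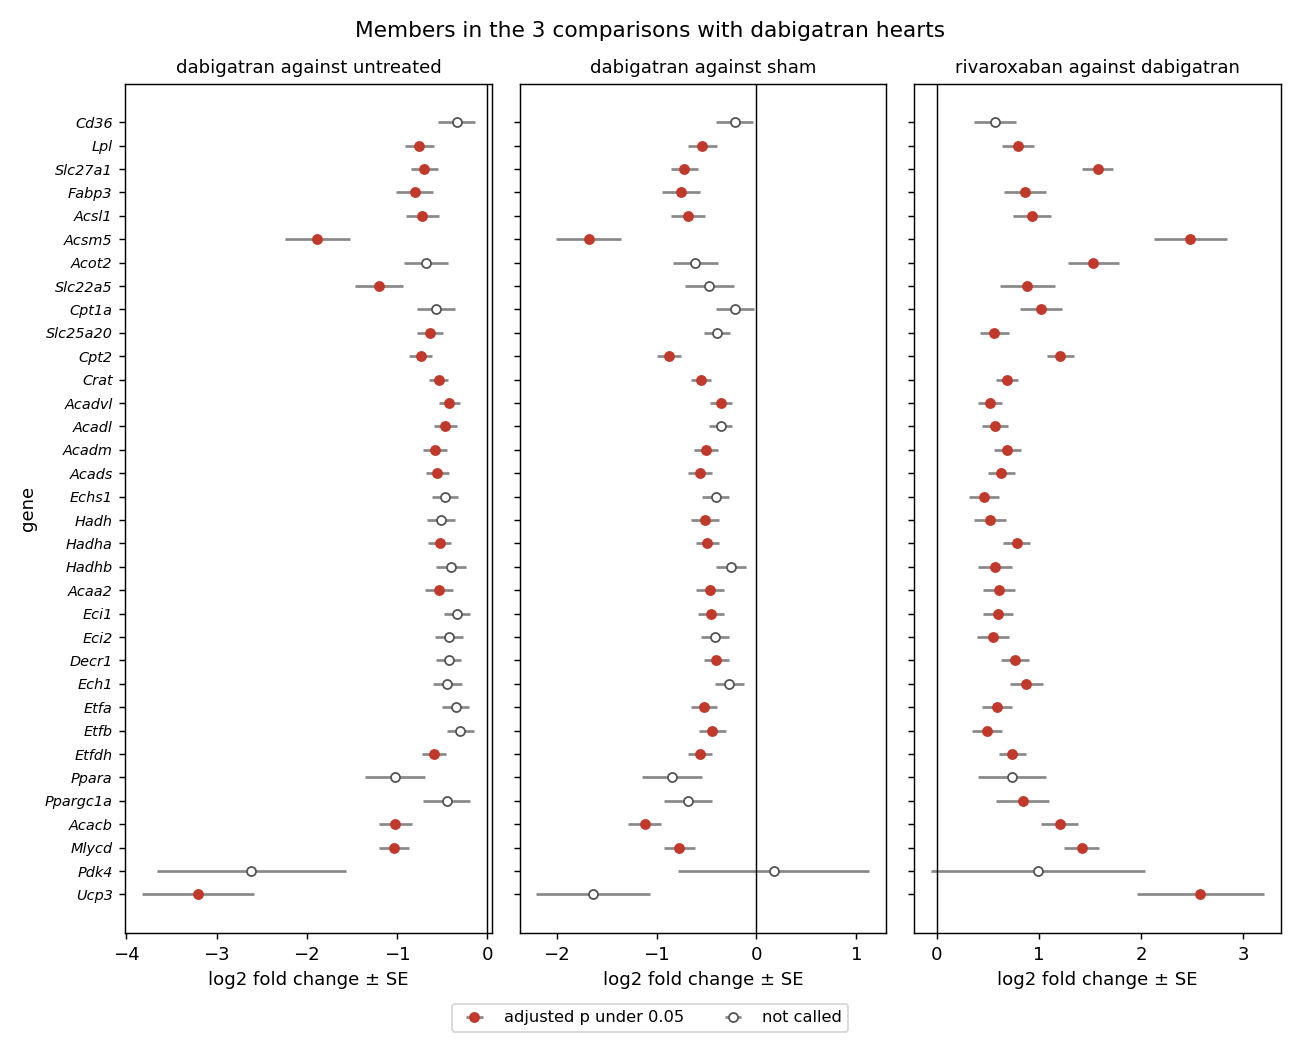
Log2 fold change of each of the 34 genes with its standard error, in dabigatran against untreated (left), dabigatran against sham (middle) and rivaroxaban against dabigatran hearts (right); filled points passed an adjusted p under 0.05. On the deposited scaling 34, 33 and 0 of the 34 points lie below 0, and with each library scaled to its cardiomyocyte markers 14, 18 and 0 do.

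Uptake and activation genes held some of the widest gaps between both drugs. Of 7 genes, 6 were called higher in rivaroxaban than in dabigatran hearts (beside 9.39% of all genes). In dabigatran hearts 5 were called lower than in untreated and 5 lower than in sham hearts (beside 5.08% and 6.82% of all genes). Slc27a1 (FATP1, a long-chain fatty acid transporter, chromosome 8, 71568882 to 71587302 on mm10) read 8.99 and 8.95 log2 CPM in rivaroxaban, 7.48 and 7.31 in dabigatran, 7.70 and 7.58 in aPC, 8.07 and 8.12 in untreated, and 8.20, 7.85 and 8.30 in sham hearts. Rivaroxaban libraries were above, and dabigatran libraries below, every other library. The gene was 2.98-fold higher in rivaroxaban than in dabigatran hearts (log2 fold change 1.57 ± 0.15, adjusted p = 0.00037, limma). It was also higher in rivaroxaban than in untreated hearts (0.88 ± 0.15, adjusted p = 0.0114), a call lost without Riva-313 or Riva-319 (adjusted p up to 0.106). It was lower in dabigatran than in sham hearts by 0.72 ± 0.14 (log2 fold change -0.72, adjusted p = 0.00759). In aPC hearts its difference from sham was -0.48 ± 0.14 (adjusted p = 0.135).

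Acsm5, a medium-chain acyl-CoA synthetase of mitochondria, read 3.45 and 3.32 log2 CPM in rivaroxaban, 0.55 and 1.26 in dabigatran, 3.68 and 3.14 in aPC, 2.89 and 2.70 in untreated, and 3.19, 2.23 and 2.33 in sham hearts. Dabigatran libraries were the lowest of all, in the least abundant member. It was 5.59-fold higher in rivaroxaban than in dabigatran hearts (2.48 ± 0.36, adjusted p = 0.00142). The fall against untreated hearts was -1.89 ± 0.36 (adjusted p = 0.00863), and it was lost without Dabi-202 (0.0707). Acsm5 shares exon sequence with Pdilt on the opposite strand, and the strand setting of the counting is not given in the sources used here.

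Fabp3, the heart's fatty acid binding protein, was the most abundant member per length, at 3961 CPM per kb of exon in rivaroxaban, 2177 in dabigatran, 4701 in aPC, 3832 in untreated and 3662 in sham hearts (group means). On the log2 scale it read 11.51 and 11.82 in rivaroxaban, 10.96 and 10.63 in dabigatran, 11.95 and 11.89 in aPC, 11.35 and 11.85 in untreated, and 11.72, 11.48 and 11.46 in sham hearts. Both dabigatran libraries were below all others. Rivaroxaban hearts exceeded dabigatran hearts by 0.86 ± 0.21 (adjusted p = 0.0148), a call lost without Dabi-204 or Riva-319 (adjusted p up to 0.11).

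Lpl, which encodes lipoprotein lipase, read 12.76 and 12.65 log2 CPM in rivaroxaban, 11.88 and 11.94 in dabigatran, 12.64 and 12.74 in aPC, 12.60 and 12.74 in untreated, and 12.37, 12.42 and 12.57 in sham hearts. The long-chain acyl-CoA synthetase gene Acsl1 read 10.10 and 10.14 in rivaroxaban, 9.20 and 9.16 in dabigatran, 10.00 and 10.08 in aPC, 9.61 and 10.20 in untreated, and 10.03, 9.70 and 9.87 in sham hearts. In both genes the dabigatran libraries lay below all 9 others. Rivaroxaban exceeded dabigatran hearts by 0.79 ± 0.16 in Lpl (adjusted p = 0.00672, up to 0.0715 without Riva-313) and by 0.94 ± 0.19 in Acsl1 (adjusted p = 0.00623).

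Acot2, a mitochondrial acyl-CoA thioesterase, read 7.71 and 8.00 log2 CPM in rivaroxaban, 6.55 and 6.09 in dabigatran, 7.26 and 6.86 in aPC, 6.93 and 7.08 in untreated, and 7.33, 6.59 and 6.88 in sham hearts. Rivaroxaban libraries were the highest and dabigatran libraries the lowest. It was 2.90-fold higher in rivaroxaban than in dabigatran hearts (1.54 ± 0.25, adjusted p = 0.00232). Its value is uncertain because Acot1 is a close copy that can share its reads. Cd36, the membrane fatty acid receptor, was the 1 uptake gene called in none of the 8 comparisons. It read 11.25 and 11.25 log2 CPM in rivaroxaban, 10.96 and 10.40 in dabigatran, 11.42 and 11.21 in aPC, 11.00 and 11.04 in untreated, and 11.05, 10.65 and 11.00 in sham hearts, so that a dabigatran library fell within the sham range. Its difference between rivaroxaban and dabigatran hearts was 0.57 ± 0.20 (adjusted p = 0.0667), and all 7 uptake genes lay above 0 there.

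The uptake count for rivaroxaban against dabigatran stayed between 5 and 7 without any 1 library. For dabigatran against untreated hearts it was 1 without Dabi-202, and 2 without Dabi-204 or Cont_19. Against sham it was 1 and 2 without Dabi-202 and Dabi-204, 2 without Sham_003 and 3 without Sham_006 or Sham_007. After scaling to cardiomyocyte markers 5 of the 7, all but Cd36 and Fabp3, stayed called between both drugs.

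**Figure D3:**
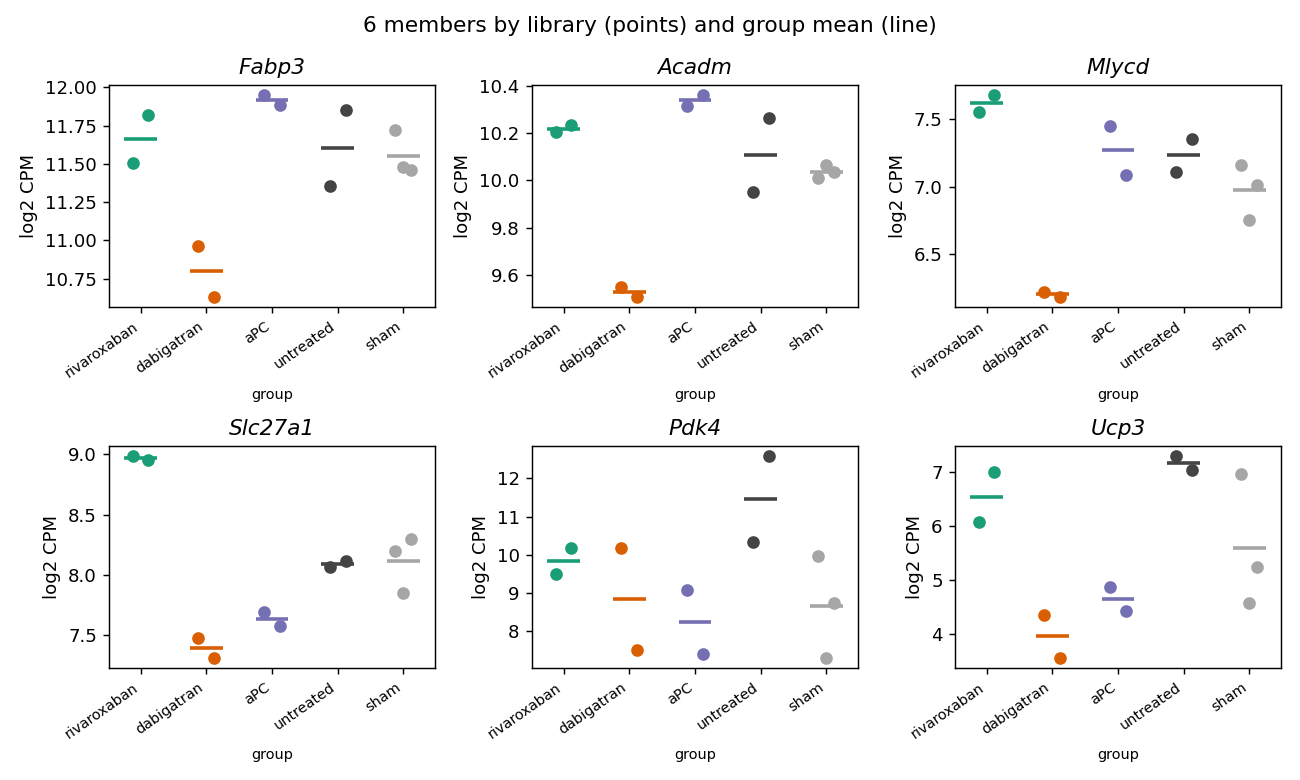
Level in log2 CPM of 6 genes (Fabp3, Acadm, Mlycd, Slc27a1, Pdk4 and Ucp3) in each library (points) with the group mean (line), for rivaroxaban, dabigatran, aPC, untreated and sham hearts. Dabigatran libraries are the lowest 2 in every panel but Pdk4, where they read 10.19 and 7.51, and Ucp3 in dabigatran hearts, at 4.35 and 3.56, lies below aPC hearts at 4.87 and 4.42.

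In the carnitine shuttle, the gene with the clearest gap was Cpt2, which rebuilds acyl-CoA on the inner mitochondrial membrane (chromosome 4, 107903981 to 107923610 on mm10). Cpt2 read 8.03 and 8.20 log2 CPM in rivaroxaban, 6.84 and 6.96 in dabigatran, 8.15 and 8.02 in aPC, 7.71 and 7.57 in untreated, and 7.89, 7.64 and 7.79 in sham hearts. The dabigatran pair lay below every other library and no library of the rest came within its range. It was 2.32-fold higher in rivaroxaban than in dabigatran hearts (1.21 ± 0.13, adjusted p = 0.000491). The gene was lower in dabigatran than in untreated hearts by 0.74 ± 0.13 (log2 fold change -0.74, adjusted p = 0.00635) and than in sham hearts by 0.87 ± 0.12 (-0.87, adjusted p = 0.00189). In aPC hearts it was higher than in untreated hearts (0.45 ± 0.13, adjusted p = 0.0428), a call that 8 of 11 fits without 1 library lost (adjusted p up to 0.191); the 3 that kept it left out Cont_17 or either dabigatran library.

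Cpt1a, the outer-membrane carnitine palmitoyltransferase best known from liver, read 6.79 and 6.80 log2 CPM in rivaroxaban, 5.60 and 5.94 in dabigatran, 5.81 and 5.74 in aPC, 6.15 and 6.53 in untreated, and 6.33, 5.69 and 5.94 in sham hearts. Both rivaroxaban libraries were above all others, while the dabigatran, aPC and sham ranges overlapped. It was 2.03-fold higher in rivaroxaban than in dabigatran hearts (1.02 ± 0.21, adjusted p = 0.00732), a call lost without Dabi-202 or Riva-313 (up to 0.0773). Crat, carnitine acetyltransferase, read 9.21 and 9.21 log2 CPM in rivaroxaban, 8.54 and 8.50 in dabigatran, 9.30 and 9.29 in aPC, 9.01 and 9.11 in untreated, and 9.06, 9.10 and 9.06 in sham hearts. The dabigatran pair was lowest. Rivaroxaban hearts were higher by 0.69 ± 0.11 (adjusted p = 0.00213), although Crat overlaps Dolpp1 on the opposite strand.

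Slc25a20, the carnitine-acylcarnitine carrier, read 7.68 and 7.81 log2 CPM in rivaroxaban, 7.32 and 7.05 in dabigatran, 8.06 and 7.88 in aPC, 7.77 and 7.86 in untreated, and 7.73, 7.49 and 7.53 in sham hearts. Slc22a5, the carnitine importer OCTN2, read 5.55 and 5.50 in rivaroxaban, 4.53 and 4.74 in dabigatran, 5.20 and 5.28 in aPC, 5.38 and 6.30 in untreated, and 5.35, 4.81 and 5.17 in sham hearts. Dabigatran libraries were the lowest in both genes. Of the 6 shuttle genes listed, 5 were analysed here, without Cpt1b. All 5 were called higher in rivaroxaban than in dabigatran hearts and 4 lower in dabigatran than in untreated hearts, but 2 against sham. Shares of all genes in these 3 comparisons were 9.39%, 5.08% and 6.82%. The first count fell to 2 without Riva-313 and to 3 without Riva-319 or Dabi-202 or Dabi-204. Against sham it was 4 without Cont_17 or Cont_19. With the scaling to cardiomyocyte markers, Cpt2 alone of the 5 stayed called between both drugs and 0 were called against untreated or sham hearts.

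Enzymes of the beta-oxidation spiral differed by small and similar amounts. Of 10 genes listed, 9 were analysed here, without Acaa1a. All 9 were called higher in rivaroxaban than in dabigatran hearts (beside 9.39% of all genes), by 0.46 to 0.78 on the log2 scale. In dabigatran hearts 6 were called lower than in untreated and 6 lower than in sham hearts (beside 5.08% and 6.82%). These calls were all lost after scaling to cardiomyocyte markers. Acadm, medium-chain acyl-CoA dehydrogenase, read 10.20 and 10.23 log2 CPM in rivaroxaban, 9.55 and 9.51 in dabigatran, 10.31 and 10.36 in aPC, 9.95 and 10.26 in untreated, and 10.01, 10.06 and 10.03 in sham hearts. The dabigatran pair lay below all others and aPC libraries were the highest. It was 1.61-fold higher in rivaroxaban than in dabigatran hearts (0.69 ± 0.13, adjusted p = 0.00544). The fall against untreated hearts was -0.58 ± 0.13 (adjusted p = 0.0196), lost without Cont_19 or either dabigatran library (up to 0.0828), and it turned to 0.049 after scaling to cardiomyocyte markers.

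The chain-length series of dehydrogenases showed like gaps. Between rivaroxaban and dabigatran hearts the difference was 0.52 ± 0.12 for Acadvl (very long chains), 0.57 ± 0.13 for Acadl (long chains), 0.69 ± 0.13 for Acadm and 0.63 ± 0.13 for Acads (short chains), each within the standard errors of its neighbours. Acadl read 10.14 and 10.25 log2 CPM in rivaroxaban, 9.66 and 9.59 in dabigatran, 10.37 and 10.32 in aPC, 9.97 and 10.21 in untreated, and 10.00, 9.96 and 9.98 in sham hearts. Without Riva-319 neither Acadvl, Acadl nor Acads was called (adjusted p up to 0.0932), and without Riva-313 neither Acadvl nor Acadl.

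Hadha and Hadhb encode the alpha and beta subunits of the mitochondrial trifunctional protein, which carries out the last 3 steps of the spiral on long chains. Both genes lie head to head on chromosome 5 of mm10, Hadha at 30118304 to 30155162 on the minus strand and Hadhb at 30155248 to 30184593 on the plus strand. The gap between their annotated starts is 85 bases. That shared promoter window is shown because both subunits start from it. It is the RefSeq window of 250 bases before to 50 bases after the Hadhb start, chr5:30155003-30155302 of GRCm38.p6, plus strand, with the gap in capitals.
Hadhb: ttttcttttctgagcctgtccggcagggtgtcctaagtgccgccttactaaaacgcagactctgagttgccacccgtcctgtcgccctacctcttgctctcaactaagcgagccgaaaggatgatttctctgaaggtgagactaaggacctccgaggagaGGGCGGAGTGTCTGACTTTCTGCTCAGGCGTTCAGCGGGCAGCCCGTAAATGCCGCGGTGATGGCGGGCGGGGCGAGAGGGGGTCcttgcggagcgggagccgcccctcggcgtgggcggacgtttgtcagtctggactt

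Hadha read 10.78 and 10.88 log2 CPM in rivaroxaban, 10.04 and 10.06 in dabigatran, 10.88 and 10.76 in aPC, 10.50 and 10.66 in untreated, and 10.61, 10.46 and 10.55 in sham hearts. Hadhb read 10.92 and 11.07 in rivaroxaban, 10.56 and 10.28 in dabigatran, 11.19 and 11.08 in aPC, 10.65 and 10.99 in untreated, and 10.79, 10.60 and 10.64 in sham hearts. In both genes the dabigatran pair was lowest, and the rivaroxaban pair was above all sham libraries. Between rivaroxaban and dabigatran hearts the difference was 0.78 ± 0.13 in Hadha (adjusted p = 0.00284) and 0.57 ± 0.17 in Hadhb (adjusted p = 0.0316). The Hadhb call was lost without any 1 of the 4 rivaroxaban and dabigatran libraries (up to 0.169). Against untreated hearts Hadha was lower in dabigatran hearts by 0.53 ± 0.13 (log2 fold change -0.53, adjusted p = 0.0263; 0.10 after scaling to cardiomyocyte markers), and Hadhb differed by -0.40 ± 0.17 (adjusted p = 0.129).

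The remaining spiral enzymes were Echs1 (enoyl-CoA hydratase), Hadh (the hydroxyacyl-CoA dehydrogenase of shorter chains) and Acaa2 (a thiolase). Between rivaroxaban and dabigatran hearts they differed by 0.46 ± 0.15, 0.52 ± 0.16 and 0.61 ± 0.15 (adjusted p = 0.0442, 0.037 and 0.0182). Echs1 and Hadh kept their calls in 2 of 11 fits without 1 library, those without an untreated library, and Acaa2 in 7, all but those without a rivaroxaban or dabigatran library. The spiral count between both drugs fell to 2 and 3 without Riva-319 and Riva-313, and to 5 without Dabi-202 or Dabi-204. Against untreated hearts it was 0 without Dabi-202 or Dabi-204 or Cont_19, 9 without Cont_17 and 3 without any rivaroxaban, aPC or sham library. Against sham it was 0 and 2 without Dabi-202 and Dabi-204, 1 without Sham_003, 2 without Sham_006 or Sham_007 and 3 without a rivaroxaban library, with 4 without an aPC library. After scaling to cardiomyocyte markers 0 of the 9 were called in any of the 3 comparisons.

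Unsaturated fatty acids need extra enzymes to enter the spiral, the isomerases Eci1 and Eci2, the reductase Decr1 and the dienoyl-CoA isomerase Ech1. Ech1 read 10.50 and 10.63 log2 CPM in rivaroxaban, 9.88 and 9.48 in dabigatran, 10.64 and 10.40 in aPC, 10.02 and 10.23 in untreated, and 9.97, 9.93 and 9.96 in sham hearts. Rivaroxaban and aPC libraries were above all untreated and sham libraries, and the dabigatran pair was below them. Decr1 read 8.91 and 9.02 in rivaroxaban, 8.32 and 8.07 in dabigatran, 9.11 and 8.91 in aPC, 8.60 and 8.65 in untreated, and 8.72, 8.49 and 8.57 in sham hearts. There too rivaroxaban and aPC libraries were above, and the dabigatran pair below, all untreated and sham libraries. All 4 genes were called higher in rivaroxaban than in dabigatran hearts, Ech1 by 0.88 ± 0.16 (adjusted p = 0.00443), Decr1 by 0.77 ± 0.14 (0.00377), Eci1 by 0.60 ± 0.15 (0.0162) and Eci2 by 0.55 ± 0.15 (0.0278). The share of all genes called higher there was 9.39%.

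Against untreated hearts 0 of these 4 were called in dabigatran hearts by limma, and 0 after scaling to cardiomyocyte markers. All 4 had an unadjusted p under 0.05, as did 4294 of 13541 genes. Of all genes, 13.8% were called against untreated hearts and 6.82% were called lower against sham hearts. Against sham hearts 2 were called lower, Eci1 (-0.45 ± 0.13, adjusted p = 0.0392) and Decr1 (-0.40 ± 0.12, 0.0488), and both were lost on leaving out any 1 library but an untreated one (up to 0.167 and 0.207) and turned to 0.053 and 0.11 after scaling to cardiomyocyte markers. The count between both drugs was 2 without Dabi-204 or either rivaroxaban library, and against untreated hearts it was 2 without Cont_17. With the scaling to cardiomyocyte markers Ech1 stayed called between both drugs. Eci1 was also called higher in aPC than in untreated hearts (0.48 ± 0.15, adjusted p = 0.0473), at 8.37 and 8.33 log2 CPM in aPC and 7.70 and 8.04 in untreated hearts, in 3 of 11 fits without 1 library (up to 0.182).

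Electrons leave the acyl-CoA dehydrogenases through Etfa and Etfb, the subunits of the electron transfer flavoprotein, and reach the respiratory chain through its dehydrogenase Etfdh. Etfdh read 9.37 and 9.50 log2 CPM in rivaroxaban, 8.79 and 8.60 in dabigatran, 9.72 and 9.64 in aPC, 9.20 and 9.38 in untreated, and 9.37, 9.16 and 9.25 in sham hearts. Etfb read 9.27 and 9.43 in rivaroxaban, 8.98 and 8.73 in dabigatran, 9.76 and 9.60 in aPC, 9.02 and 9.29 in untreated, and 9.26, 9.39 and 9.24 in sham hearts. In both genes aPC libraries were the highest and dabigatran libraries the lowest. All 3 genes were called higher in rivaroxaban than in dabigatran hearts, Etfdh by 0.74 ± 0.13 (adjusted p = 0.00412), Etfa by 0.59 ± 0.15 (0.0166) and Etfb by 0.49 ± 0.15 (0.0354). All 3 were called lower in dabigatran than in sham hearts, and Etfdh alone lower than in untreated hearts (-0.59 ± 0.13, 0.0188). Of all genes, 9.39% were called higher between the drugs, 6.82% lower against sham and 5.08% lower against untreated hearts. Etfb against sham and Etfdh against untreated hearts turned to 0.067 and 0.035 after scaling to cardiomyocyte markers. Etfb was called higher in aPC than in untreated hearts (0.53 ± 0.15, adjusted p = 0.0359), in 3 of 11 fits without 1 library (up to 0.167).

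The count between both drugs was 1 without Dabi-204 or either rivaroxaban library and 2 without Dabi-202, aPC-792 or Sham_003 or Sham_007. Against sham it was 0 without either dabigatran library or Sham_003, 1 without Sham_006 or Sham_007 and 2 without an aPC or rivaroxaban library. The Etfdh call against untreated hearts was lost without Cont_19 or Dabi-204 (up to 0.0754), and without Cont_17 there were 2. After scaling to cardiomyocyte markers 0 of the 3 were called in these comparisons.

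RefSeq promoter windows on GRCm38.p6, from 250 bases before to 50 after a start, were found for 30 of the 34 genes, in 33 windows. They were searched on both strands for AGGTCA repeated after 1 base, the kind of site to which PPAR-alpha is known to bind, for the looser AGGNCA repeated in that way, which includes it, for the ERR element TCAAGGTCA and for the NRF1 site, GCGCA followed directly by TGCGC. The first 3 were in 0 of the 30 genes, and in 0.0481%, 0.451% and 0.466% of 27025 genes. The NRF1 site, a palindrome, was in 2 genes, Etfdh and Ppara, and in 1.07% of all genes. A match is a description of these letters alone. The Etfdh window, chr3:79628718-79629017 on the minus strand, is shown as the member window among the called genes that holds it, with the site in capitals at bases 123 to 132.
Etfdh: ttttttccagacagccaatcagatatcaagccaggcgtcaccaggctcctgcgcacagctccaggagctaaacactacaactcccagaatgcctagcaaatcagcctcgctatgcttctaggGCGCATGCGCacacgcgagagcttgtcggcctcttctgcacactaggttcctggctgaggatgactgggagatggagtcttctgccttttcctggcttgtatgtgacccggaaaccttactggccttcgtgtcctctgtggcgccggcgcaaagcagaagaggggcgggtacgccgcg

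Among the control genes, both arms of malonyl-CoA turnover were lower in dabigatran hearts on the deposited scaling, and Acacb against sham stayed called after scaling to cardiomyocyte markers (-0.61 ± 0.21, adjusted p = 0.0362) while Mlycd did not. Mlycd encodes malonyl-CoA decarboxylase, which removes malonyl-CoA, and Acacb the acetyl-CoA carboxylase that makes it at the mitochondrial surface. Mlycd read 7.56 and 7.68 log2 CPM in rivaroxaban, 6.22 and 6.18 in dabigatran, 7.45 and 7.09 in aPC, 7.11 and 7.36 in untreated, and 7.16, 6.75 and 7.01 in sham hearts. Acacb read 9.46 and 9.35 in rivaroxaban, 7.94 and 8.47 in dabigatran, 8.73 and 8.92 in aPC, 9.15 and 9.30 in untreated, and 9.31, 9.16 and 9.51 in sham hearts. Dabigatran libraries were lowest in both genes, and in Acacb the aPC pair also lay below the untreated and sham libraries. Mlycd was 2.68-fold higher in rivaroxaban than in dabigatran hearts (1.42 ± 0.17, adjusted p = 0.000662) and Acacb 2.30-fold (1.20 ± 0.18, adjusted p = 0.00196). Against untreated hearts Mlycd was lower in dabigatran hearts by 1.03 ± 0.17 (log2 fold change -1.03, adjusted p = 0.0045) and Acacb by 1.02 ± 0.18 (-1.02, 0.00701). Neither of these 2 calls was left after scaling to cardiomyocyte markers, where 1 control gene, Ucp3, was called.

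Ucp3, an uncoupling protein of the inner mitochondrial membrane (chromosome 7, 100472990 to 100486432 on mm10), showed the widest difference of any member between dabigatran and untreated hearts. It read 6.07 and 7.00 log2 CPM in rivaroxaban, 4.35 and 3.56 in dabigatran, 4.87 and 4.42 in aPC, 7.29 and 7.02 in untreated, and 6.95, 4.57 and 5.24 in sham hearts. Untreated libraries were above all others, Riva-319 and Sham_003 lay close to them, and the dabigatran pair was lowest. Ucp3 was 9.22-fold lower in dabigatran than in untreated hearts (-3.20 ± 0.62, adjusted p = 0.00945; 0.0549 without Dabi-204). It was also lower in aPC than in untreated hearts (-2.51 ± 0.62, adjusted p = 0.0238; up to 0.148 without either aPC library). Rivaroxaban hearts were 5.99-fold above dabigatran hearts (2.58 ± 0.62, adjusted p = 0.0153), a call lost without either dabigatran library or Riva-319 (up to 0.105). Both the fall against untreated hearts (-2.58 ± 0.66, 0.0104) and the gap between the drugs (2.24 ± 0.66, 0.0277) stayed called after scaling to cardiomyocyte markers. Its RefSeq window, chr7:100472741-100473040 of GRCm38.p6 on the plus strand, is shown as that of the member with the widest difference between dabigatran and untreated hearts and holds none of the 4 motifs, so it has no capitals.
Ucp3: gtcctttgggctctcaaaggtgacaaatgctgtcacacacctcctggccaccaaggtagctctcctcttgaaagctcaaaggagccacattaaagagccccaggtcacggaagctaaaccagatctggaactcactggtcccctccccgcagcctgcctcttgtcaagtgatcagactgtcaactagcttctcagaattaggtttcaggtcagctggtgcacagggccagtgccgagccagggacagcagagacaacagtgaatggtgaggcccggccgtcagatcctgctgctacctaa

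Pdk4, the kinase that shuts off pyruvate dehydrogenase and so glucose oxidation, was the least even member within groups. It read 9.50 and 10.18 log2 CPM in rivaroxaban, 10.19 and 7.51 in dabigatran, 9.09 and 7.41 in aPC, 10.34 and 12.59 in untreated, and 9.96, 7.31 and 8.74 in sham hearts. Untreated libraries were the highest. Dabigatran and sham libraries overlapped with those of rivaroxaban and of aPC, while both rivaroxaban libraries lay above both aPC libraries. Differences from untreated hearts were -2.62 ± 1.05 in dabigatran (adjusted p = 0.119) and -3.21 ± 1.05 in aPC hearts (adjusted p = 0.0573), and untreated hearts differed from sham by 2.79 ± 0.96 (adjusted p = 0.0819).

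The receptor gene Ppara read 6.06 and 5.36 log2 CPM in rivaroxaban, 4.84 and 5.09 in dabigatran, 5.09 and 5.57 in aPC, 5.50 and 6.47 in untreated, and 5.53, 5.81 and 6.10 in sham hearts. Ppargc1a, its coactivator PGC-1alpha, read 7.14 and 6.65 in rivaroxaban, 5.68 and 6.42 in dabigatran, 6.67 and 6.97 in aPC, 6.29 and 6.72 in untreated, and 6.68, 6.61 and 6.94 in sham hearts. Libraries of the same group spread widely in both genes. Ppara differed by 0.74 ± 0.33 between rivaroxaban and dabigatran hearts (adjusted p = 0.135) and by -1.02 ± 0.33 between dabigatran and untreated hearts (adjusted p = 0.0674). Ppargc1a was called higher in rivaroxaban than in dabigatran hearts (0.84 ± 0.26, adjusted p = 0.0414) in 3 of 11 fits without 1 library (up to 0.328).

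Of the 6 control genes, 4 were called higher in rivaroxaban than in dabigatran hearts, 3 lower in dabigatran than in untreated and 2 lower than in sham hearts. Shares of all genes in these 3 comparisons were 9.39%, 5.08% and 6.82%. The first count was 2 without Dabi-202 or Riva-319. The second was 5 without Cont_17 and 2 without Dabi-204, and the third was 4 without either untreated library, 1 without Dabi-202 and 3 without Dabi-204 or Sham_006. After scaling to cardiomyocyte markers Mlycd, Acacb and Ucp3 stayed called between both drugs.

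**Figure D4:**
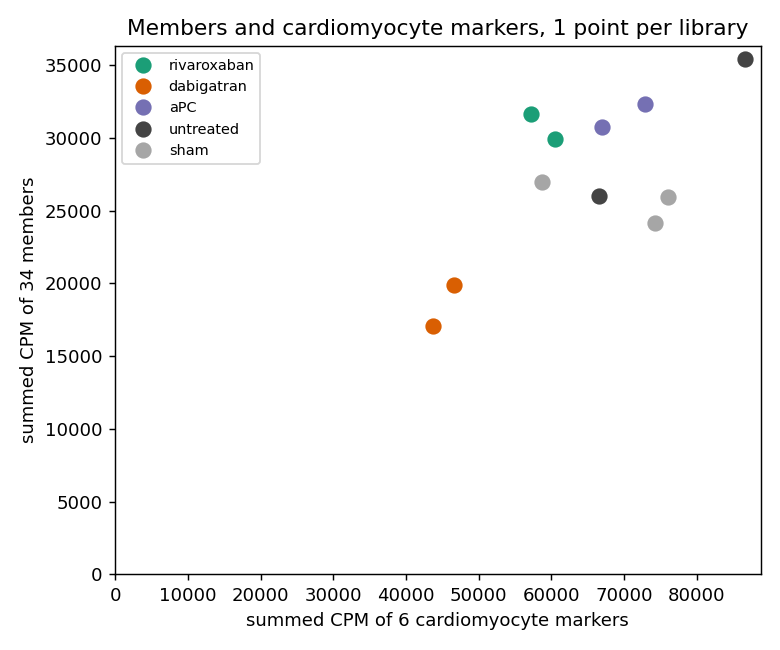
Summed CPM of the 34 fatty acid genes (vertical axis) against summed CPM of 6 cardiomyocyte markers (horizontal axis), 1 point per library, coloured by group, both axes from 0. The dabigatran points, at 43713 to 46609 CPM of markers, lie lowest on both axes, and the rivaroxaban points, at 57207 to 60540, carry 29923 and 31672 CPM of the fatty acid genes, above the 24149 to 26991 of the sham libraries.

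Between rivaroxaban and untreated hearts Slc27a1 was the 1 member called higher (2.94% of members, beside 4.02% of all genes called higher and 8.47% called at all), and 0 were called lower. In 13 members the libraries did not overlap, with rivaroxaban the higher group (38.2%, beside 28.1% of all genes), and the median difference was 0.16. Next by p were Cpt2 (0.47 ± 0.13, adjusted p = 0.053) and Acot2 (0.85 ± 0.25, adjusted p = 0.0577). The count was 0 without Riva-313 or Riva-319, 2 without Sham_003, 3 without Cont_17 (2 higher and 1 lower), and 4 higher after scaling to cardiomyocyte markers. Under that scaling 918 of 13541 genes were called, 74.2% of them higher. Against sham hearts 0 members were called by limma, beside 0% of all genes, with 9 members and 761 of all genes at an unadjusted p under 0.05. There 33 of the 34 differences lay above 0, and 19 members did not overlap, with rivaroxaban the higher group (55.9%, beside 16% of all genes). Slc27a1 differed by 0.85 ± 0.14 (adjusted p = 0.243), Acot2 by 0.92 ± 0.22 and Cpt1a by 0.81 ± 0.19 (both 0.475). Weighting libraries by their spread called 4 members higher, and the share of all genes called with those weights is not given here.

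Activated protein C hearts had the highest mean in most members, but few passed. Against untreated hearts 3 were called higher (Cpt2, Eci1 and Etfb) and 1 lower (Ucp3), which is 11.8% of members beside 17.6% of all genes (7.44% higher and 10.2% lower). The libraries did not overlap in 22 members, with aPC the higher group (64.7%, beside 31.6% of all genes), and the median difference was 0.29. In 6 members (17.6%, beside 27.6% of all genes) they did not overlap with aPC the lower group, namely Slc27a1, Slc22a5, Cpt1a, Acacb, Pdk4 and Ucp3. The count was 0 without either aPC library, 7 and 6 without Cont_17 and Cont_19, 1 without either rivaroxaban library or Sham_003 or Sham_007, 2 without Sham_006, and 0 when libraries were weighted or only both groups fitted. Against sham hearts 0 were called by limma (beside 1.17% of all genes). At an unadjusted p under 0.05 were 22 members, beside 2307 of 13541 genes. In 22 members the libraries did not overlap, with aPC the higher group (64.7%, beside 24% of all genes). The smallest p was that of Echs1, at 9.02 and 8.88 log2 CPM in aPC hearts and 8.38, 8.53 and 8.35 in sham hearts (0.53 ± 0.13, adjusted p = 0.0914). Weighting libraries called 14 higher and 2 lower. The share of all genes called with those weights is not given here, so these counts cannot be set against it.

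Between untreated and sham hearts 0 of 34 members were called by limma, beside 10.6% of all genes. At an unadjusted p under 0.05 there were 3 of the 34, beside 4325 of 13541 genes, a larger share. The 3 were Slc22a5 (0.73 ± 0.24, adjusted p = 0.0773), Pdk4 and Ucp3 (1.57 ± 0.57, adjusted p = 0.0936), all higher in untreated hearts. In 6 members the libraries did not overlap, with untreated the higher group (17.6%, beside 21.4% of all genes), and the median difference was 0.06. Without Cont_17 there were 2 calls and without Sham_003 there was 1.

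Genes of neighbouring lipid pathways were measured in the same fits. Over all genes 9.39% were called higher and 23.3% at all in rivaroxaban against dabigatran hearts. In dabigatran against untreated hearts 5.08% were called lower and 13.8% at all, and the unscaled counts of each list below stand beside these shares. After scaling to cardiomyocyte markers 6792 of 13541 genes were called against untreated hearts, 97.9% of them higher. Between both drugs 3644 were called then, 8.51% of them higher. The scaled counts of each list below stand beside these numbers. Of 15 lipid droplet and triglyceride genes, 9 were called higher and 0 lower in rivaroxaban than in dabigatran hearts, and 0 higher and 5 lower in dabigatran than in untreated hearts. Dgat2, which makes triglyceride, averaged 7.45 ± 0.24 log2 CPM in dabigatran and 8.99 ± 0.40 in untreated hearts (SD, n = 2 each), a difference of -1.54 ± 0.19 (adjusted p = 0.00128). The lipase gene Pnpla2 differed by -0.97 ± 0.15 and the droplet coat gene Plin4 by -1.80 ± 0.29 (adjusted p = 0.00365 and 0.00424). The second count was 3 without Dabi-202 or either rivaroxaban library, and the first was 5 without Riva-313. After the scaling to cardiomyocyte markers they were 4 higher and 0 lower between both drugs, and 1 higher and 2 lower against untreated hearts.

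Peroxisomal oxidation genes gave 7 higher and 0 lower of 14 in rivaroxaban against dabigatran hearts (beside 9.39% of all genes higher). They gave 0 higher and 3 lower in dabigatran against untreated hearts (beside 5.08% of all genes lower). Ehhadh differed by 1.76 ± 0.31 and Amacr by 0.69 ± 0.15 between rivaroxaban and dabigatran hearts, and the Amacr call was lost without Dabi-202, Riva-313 or Riva-319. The first count was 2 without Dabi-202 or either rivaroxaban library, and the second was 6 without Cont_17. Scaled to cardiomyocyte markers, the list gave 1 higher and 0 lower between both drugs and 2 higher and 0 lower against untreated hearts.

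Ketone body genes gave 2 higher of 6 in rivaroxaban against dabigatran hearts (beside 9.39% of all genes higher). In dabigatran against untreated hearts 0 were called by limma (beside 13.8% of all genes). There 2 had an unadjusted p under 0.05, beside 4294 of 13541 genes. The first count was 1 without Dabi-204 or either rivaroxaban library. The second was 1 without either aPC library and 2 without Cont_17, and 3 higher after scaling to cardiomyocyte markers.

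Other mitochondrial acyl-CoA enzymes gave 8 higher and 1 lower of 17 in rivaroxaban against dabigatran hearts (beside 23.3% of all genes called). They gave 0 higher and 4 lower in dabigatran against untreated hearts (beside 5.08% of all genes lower). Ivd, isovaleryl-CoA dehydrogenase, differed by 0.83 ± 0.13 in the first comparison (adjusted p = 0.00214) and by -0.87 ± 0.13 in the second (0.00282). Leaving out Riva-313 gave a first count of 2, Riva-319 one of 5 and Dabi-202 one of 3, and the second was 9 and 2 without Cont_17 and Cont_19 and 1 without Dabi-202. After scaling they were 2 higher and 1 lower, and 1 higher and 0 lower.

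Among 19 other regulators of lipid genes, 6 were called higher and 0 lower in rivaroxaban against dabigatran hearts (beside 9.39% of all genes higher). In dabigatran against untreated hearts 1 of the 19 was called lower, close to the 5.08% of all genes called lower. That gene was Klf15, a transcription factor known to favour lipid use in heart, at 6.82 ± 0.02 log2 CPM in rivaroxaban, 5.17 ± 0.30 in dabigatran and 6.62 ± 0.22 in untreated hearts (SD, n = 2 each). Klf15 differed by 1.65 ± 0.16 between rivaroxaban and dabigatran hearts and by -1.44 ± 0.16 between dabigatran and untreated hearts (adjusted p = 0.00037 and 0.000806). Esrrb and Rxra, nuclear receptors, were higher in rivaroxaban than in dabigatran hearts by 0.95 ± 0.22 and 0.54 ± 0.13, calls lost without Dabi-202, Riva-313 or Riva-319. The first count was 1 without Dabi-202 or either rivaroxaban library, and the second was 4 without Cont_17 and 2 without Dabi-204. After scaling they were 1 higher and 1 lower, and 4 higher and 1 lower. In dabigatran against sham hearts 1 of the 19 was called higher and 7 lower (beside 6.82% of all genes lower and 18.5% called at all). After scaling 2 were called higher there and 0 lower.

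The remaining lists held both directions. Other transport, ligase and thioesterase genes gave 4 higher and 3 lower of 16 in rivaroxaban against dabigatran hearts (beside 23.3% of all genes called). They gave 2 higher and 4 lower in dabigatran against untreated hearts (beside 13.8% of all genes called). Acss1, a mitochondrial acetyl-CoA synthetase, differed by -0.74 ± 0.13 and Fabp5, a binding protein also made by macrophages and endothelium, by 1.38 ± 0.26 in the second comparison, calls lost without Dabi-202. Fatty acid synthesis and desaturation genes gave 3 higher and 2 lower of 12 in the first (beside 23.3%), with the elongase gene Elovl6 at -1.85 ± 0.29. They gave 1 higher and 1 lower in the second (beside 13.8%). The transport count in the first comparison was 11 without either untreated library and 4 without Dabi-202 or either rivaroxaban library, and in the second 1 without Dabi-202. The synthesis count in the first was 2 without Riva-313 and 3 without Riva-319 or Dabi-204. In the second it was 5 without Cont_17, 0 without Cont_19 or Dabi-204, and 1 without any aPC or sham library. After scaling to cardiomyocyte markers, the transport list gave 3 higher and 3 lower in the first and 7 higher and 1 lower in the second, and the synthesis list 1 higher and 2 lower, and 4 higher and 0 lower. Beside them, 3644 of 13541 genes were called in the first under that scaling, 8.51% of them higher. In the second 6792 were called, 97.9% of them higher.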

How the data were processed

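The authors deposited 1 table of log2 CPM, scaled by TMM according to its name. Build mm10 and the tools STAR, edgeR, Trim Galore, FastQC and bcl2fastq stand in the submitters' processing notes, without versions. The sources used here name no counter, annotation, strand setting or gene filter. The lowest log2 value was -3.93 in every library, and reads recovered from the log2 values were whole to within 0.05 read in 100% of values. Of 15 labelled samples, 4 were not analysed here. Values of 0 or more in at least 3 libraries were required of a gene. Tests were two-sided, by limma-trend, from 1 fit of the 5 group means (R 4.3.3, limma 3.58.1, statmod 1.5.0), with Benjamini-Hochberg adjustment over 13541 genes in each of 8 comparisons. Standard errors from limma follow ±, except where SD is named. Comparisons share libraries, untreated and sham in particular. edgeR was not run because the table holds no counts; limma voom on the recovered reads was an alternative. The procedure was tested on simulated data.

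Members and lists were chosen with earlier results of these data known. Every member could be named, with up to 3 genes of each other list by smallest p in a comparison; some genes that this would name are not reported here. Identifiers were matched to GENCODE M21 for positions and exon lengths. Exons of 10 of the 34 members overlap another gene (Acadvl, Acsl1, Acsm5, Crat, Echs1, Eci2, Etfb, Etfdh, Fabp3 and Hadha), whose reads could mix with theirs. Alternatives were no filter, a pseudocount of 1 CPM, median centring, quantile normalization, library weights, a fit of only the groups compared, voom, leaving out each library in turn and, chosen after seeing the data, scaling each library to 6 cardiomyocyte markers.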

Additional observations from a re-analysis of the deposited data

How the results depend on the processing

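Libraries held 26203566 reads or more and the least read member value rested on 37, and each group had 2 or 3 libraries. No paired analysis was possible because the groups share no replicate number. Without the filter, with a pseudocount of 1 CPM or with median centring, the counts of called members stayed within 1.5 times those reported. Quantile normalization gave 4 in rivaroxaban against untreated, and voom 2 in aPC against untreated hearts. Library weights gave 0 in rivaroxaban, 0 in dabigatran and 0 in aPC against untreated, 4 in rivaroxaban and 16 in aPC against sham. A fit of only the groups compared gave 0, 1 and 0 in rivaroxaban, dabigatran and aPC against untreated and 2 in aPC against sham. Shares of all genes called with library weights or in fits of only the groups compared are not given here. Scaling to cardiomyocyte markers gave 4, 2 and 2 against untreated in rivaroxaban, dabigatran and aPC hearts, 10 in rivaroxaban against dabigatran and 2 in dabigatran against sham. Of 13541 genes, 918, 6792, 1383, 3644 and 5286 were called in those comparisons under that scaling, in that order. The cause of these moves was not tested. Leaving out 1 library gave 0 to 3 in rivaroxaban, 7 to 28 in dabigatran and 0 to 7 in aPC against untreated, 15 to 32 in rivaroxaban against dabigatran, and against sham 0 to 2 in untreated, 0 in rivaroxaban, 4 to 27 in dabigatran and 0 to 2 in aPC. Of 3135 recomputed values of single called genes, 2397 kept direction and call, 721 lost the call and 17 turned, all 17 in dabigatran hearts under the scaling to cardiomyocyte markers. Against untreated these were Crat 0.085, Acadvl 0.20, Acadl 0.16, Acadm 0.049, Acads 0.073, Hadha 0.10, Acaa2 0.093, Etfdh 0.035, Srebf1 0.14, Pcca 0.022 and Pccb 0.14, and against sham Acadvl 0.15, Hadha 0.017, Acaa2 0.041, Eci1 0.053, Decr1 0.11 and Etfb 0.067 (log2 fold changes).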
